A study of Mus musculus with 16 samples.

Results

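A set of 10 genes, of 54446 mouse gene identifiers counted, was followed as markers of fibroblasts and of the extracellular matrix in newly made RNA of mouse embryonic stem cells. They are listed by identifier, with no threshold on measured values, to ask whether RNA of feeder fibroblasts was present in each library, and the list was drawn up with earlier results of these data known. They encode the fibrillar collagen chains Col1a1, Col1a2 and Col3a1, the small proteoglycans Lum and Dcn, the matrix glycoproteins Fn1 and Sparc, the filament proteins Vim and Acta2, and the surface protein Thy1.

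The cells were of strain C57BL/6 and carried either of 2 genotypes, labelled Mettl14 Control and Mettl14 CKO (conditional knockout). METTL14 pairs with METTL3 to form the methyltransferase that places N6-methyladenosine on messenger RNA. Cells of both genotypes grew with serum, LIF, the GSK3 inhibitor CHIR99021 at 3 µM and the MEK inhibitor PD0325901 at 1 µM, and the growth protocol mentions no feeder layer. At 48 h after seeding, the uridine analogue 5-ethynyl uridine (EU), which RNA polymerases incorporate as they transcribe, was given at 0.5 mM for 10, 20, 30 or 60 min, and the labelled RNA was captured and sequenced. Each of the 8 groups had 2 libraries, 16 in all. The sources used here do not state how Mettl14 was deleted, how many clones were used or whether replicates were separate cultures. The p-values therefore rest on the spread between libraries, which may be technical.

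Embryonic and adult fibroblasts secrete a matrix built on fibrils of type I collagen, a trimer of COL1A1 and COL1A2 chains, into which type III collagen is often mixed. Decorin and lumican, the products of Dcn and Lum, bind these fibrils and are abundant in fibroblasts of connective tissue. Fn1, Sparc and Vim are less selective: they are made by many adherent cell types, so that only the fibril-forming and fibril-binding genes of the list mark fibroblasts closely. Mouse embryonic stem cells are often grown on irradiated fibroblasts, whose RNA would then be captured with that of the stem cells.

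Mouse counts per library ranged from 5109162 to 28502750. Both CKO 30 min libraries stood apart. They had the fewest counts (5188643 and 5109162, against at least 11902184 in the other 14) but counts on 30583 and 31826 identifiers, against at most 26857 in the others. Of their counts, 1.67% and 1.63% fell on the 19033 identifiers with no count in any Control library, against at most 0.0139% in any other library. Calls over all EU times, counts of genes called by EU time and summed levels are therefore given with and without them. Leaving both out moved no log2 fold change of the 7 abundant genes at 10, 20 or 60 min, or from 10 to 60 min, by more than 0.0408. Levels are counts of a gene divided by the mouse counts of its library, times 1000000 (CPM). Changes are log2 fold changes from edgeR after TMM scaling, so a change is one in share of the captured RNA and not in its absolute amount. In these bulk samples, fewer cells of a type and less RNA per cell cannot be told apart. Genes are not compared to say which is more expressed, since the sources used here do not say which part of a gene was counted. Summed levels, and the ratio of the type I collagen chains given at the end, are compared only between genotypes.

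Over all EU times 5 of the 10 genes were higher in CKO cells than in Control cells: Vim, Acta2, Sparc, Col1a2 and Col1a1, by 1.41-fold to 1.74-fold. In Col1a2, Sparc, Vim and Acta2 both CKO libraries lay above both Control libraries at all 4 EU times. A further 4 genes were tested and not called: Col3a1, Dcn, Fn1 and Thy1, of which Dcn entered the test only through its counts in the CKO 30 min libraries. The remaining gene, Lum, had too few counts for the test. Of the 27488 identifiers tested, 11.5% were called in this comparison and 6.77% were called higher (edgeR quasi-likelihood test, Benjamini-Hochberg adjusted p under 0.05 over all identifiers tested). The median log2 fold change of the 8 genes that could be tested with and without the CKO 30 min libraries was 0.66, against 0.19 over all identifiers. The latter was 0.0003 over the 20183 identifiers that could be tested with and without the 30 min libraries. With both CKO 30 min libraries left out the same 5 genes were called, against 13.8% of 20647 identifiers. The rule that CKO lies above Control with no overlap at all 4 EU times was met by 2.89% of the 19320 identifiers with a mean of at least 1 CPM. The share at a single EU time was not computed. A lack of overlap at single times, with 2 against 2 libraries, is therefore a description only.

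**Figure D1:**
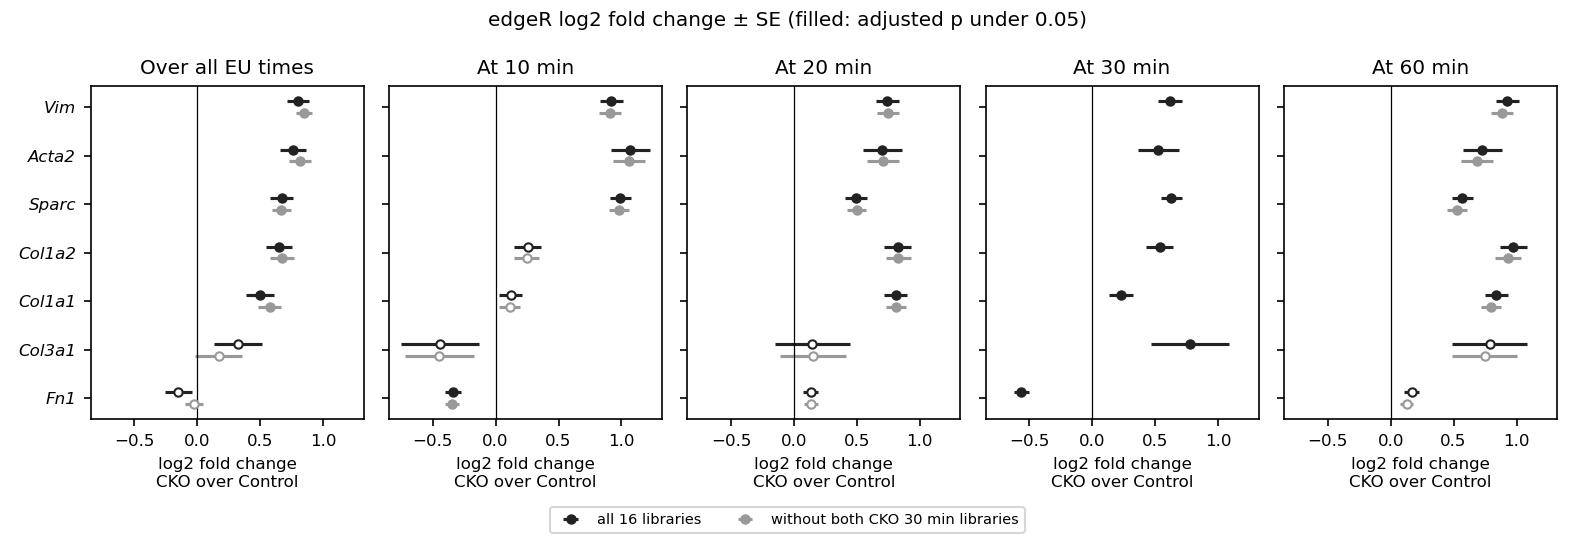
Log2 fold change of CKO over Control with its standard error (x axis) for 7 genes, over all EU times and at each EU time, from edgeR with all 16 libraries (black) and without both CKO 30 min libraries (grey); filled points have an adjusted p under 0.05. Vim, Acta2 and Sparc lie right of 0 in every panel, Col1a1 and Col1a2 move from near 0 at 10 min to 0.84 and 0.97 at 60 min, and Fn1 lies on both sides of 0.

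The genotype difference of the 5 genes that were higher in CKO over all EU times did not change alike with EU time. Shared regulation was not tested. Promoter sequences were on hand for 4 of the 5 genes, and are shown only because of the call over all EU times. Each is the 150 bases just before the transcription start that the RefSeq promoter table uses in GRCm38.p6 (the mm10 build), in the direction of transcription. For Acta2 that start, at position 34255373, lies 212 bases downstream of the outermost start of the gene, and for the other 3 genes it is the outermost start. Capitals mark matches on either strand. The motifs searched were the TATA box, spelled TATAAA, the CCAAT box, the GC box, which reads GGGCGG, the AP-1 site, with the letters TGANTCA, and the CArG box bound by serum response factor. The CArG box was searched as CC and GG with only A or T at the 6 positions between them. No mismatch was allowed in any motif, so elements that differ from these letters were not marked. Col1a2 lies at chr6:4505468-4505617 (plus strand), Vim at chr2:13574161-13574310 (plus strand), Sparc at chr11:55420081-55420230 (minus strand) and Acta2 at chr19:34255374-34255523 (minus strand).
Col1a2: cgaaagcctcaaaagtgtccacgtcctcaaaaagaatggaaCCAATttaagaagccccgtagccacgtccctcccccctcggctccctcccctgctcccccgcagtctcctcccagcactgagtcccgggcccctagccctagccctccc
Vim: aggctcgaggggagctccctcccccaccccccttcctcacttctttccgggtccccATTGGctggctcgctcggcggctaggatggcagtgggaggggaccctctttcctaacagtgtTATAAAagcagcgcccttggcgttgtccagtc
Sparc: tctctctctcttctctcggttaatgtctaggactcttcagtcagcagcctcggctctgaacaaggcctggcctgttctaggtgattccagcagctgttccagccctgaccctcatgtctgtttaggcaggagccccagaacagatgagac
Acta2: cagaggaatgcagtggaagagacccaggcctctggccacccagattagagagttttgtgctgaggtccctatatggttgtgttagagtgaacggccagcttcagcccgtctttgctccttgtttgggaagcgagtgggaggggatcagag
Vim held TATAAA from 32 to 27 bases before its start, and CCAAT on the other strand from 94 to 90 bases before it. Col1a2 held CCAAT from 109 to 105 bases before its start. The Sparc and Acta2 windows held no exact match. Of 32851 RefSeq promoter windows of this length, 7.57% held the TATA box, 24.5% the CCAAT box, 28.6% the GC box, 4.24% the AP-1 site and 0.916% a CArG box. No searched motif matched exactly in all 4 windows.

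In share of the captured RNA, the type I collagen genes were close to the Control level after 10 min of EU and above it at 20 and 60 min. At 30 min the size of both differences, and whether they were called, depended on the scaling. Col1a1 (ENSMUSG00000001506, chr11:94936224-94953042) measured 240.2 and 219 CPM in the Control libraries at 10 min, 180.0 and 169 at 20 min, 253 and 238 at 30 min and 186 and 197 at 60 min. In the CKO libraries it measured 259 and 216 CPM at 10 min, 310.0 and 302 at 20 min, 323 and 376 at 30 min and 333 and 329.6 at 60 min. The genotypes overlapped at 10 min and were apart at the other EU times. The log2 fold change of Col1a1 over all EU times was 0.50 (SE 0.11, edgeR, Benjamini-Hochberg adjusted p = 0.00657), and 0.58 (SE 0.09) without both CKO 30 min libraries (edgeR, adjusted p = 0.000168).

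Col1a2 (ENSMUSG00000029661, chr6:4505618-4541543), the partner chain, measured 103 and 111 CPM in Control at 10 min, 96.7 and 85.2 at 20 min, 128 and 110.3 at 30 min and 102 and 97.6 at 60 min. In CKO it measured 118 and 125 CPM at 10 min, 171 and 152 at 20 min, 209.7 and 209.6 at 30 min and 181 and 197 at 60 min. The CKO libraries lay above the Control libraries at every EU time, narrowly so at 10 min. Over all EU times the log2 fold change of Col1a2 was 0.65 (SE 0.10, edgeR, Benjamini-Hochberg adjusted p = 0.000467), and 0.67 (SE 0.09) without both CKO 30 min libraries (adjusted p = 3.6e-05).

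The genotype difference of both type I collagen genes changed with EU time. For Col1a1 the log2 fold change was 0.12 (SE 0.09) at 10 min, 0.81 (SE 0.09) at 20 min, 0.23 (SE 0.09) at 30 min and 0.84 (SE 0.09) at 60 min. For Col1a2 it was 0.25 (SE 0.11), 0.83 (SE 0.11), 0.53 (SE 0.11) and 0.97 (SE 0.11) in the same order. Testing genotype by EU time called Col1a1 (edgeR, Benjamini-Hochberg adjusted p = 8.2e-05) and Col1a2 (adjusted p = 0.00356), in a comparison that called 22.7% of all identifiers. Without both CKO 30 min libraries it still called both, Col1a1 with an adjusted p of 0.000749 and Col1a2 with 0.00833 (edgeR, Benjamini-Hochberg), and then 7.29% of identifiers. At 30 min the CPM ratio of Col1a1 was 1.42-fold, and with library totals in place of TMM its log2 fold change there was 0.51 (edgeR, adjusted p = 0.000154), but 0.14 with ERCC scaling (adjusted p = 0.630). That of Col1a2 was 0.82 with library totals (edgeR, adjusted p = 1.2e-06), but 0.47 with ERCC scaling (adjusted p = 0.111), where it was not called.

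Col3a1 (ENSMUSG00000026043, chr1:45311538-45349706), the chain of type III collagen, had far fewer counts, from 73 to 464 per library. In Control it measured 11.9 and 11.2 CPM at 10 min, 13.9 and 11.1 at 20 min, 13.2 and 8.74 at 30 min and 10.2 and 10.3 at 60 min. The CKO libraries gave 6.13 and 9.89 CPM at 10 min, below both Control libraries, then 15.0 and 12.7 at 20 min, 18.7 and 27.0 at 30 min and 16.8 and 17.5 at 60 min, the last 2 pairs above both Control libraries. Over all EU times its log2 fold change of 0.33 (SE 0.19) did not pass the test (edgeR, Benjamini-Hochberg adjusted p = 0.264; 0.17, adjusted p = 0.616, without both CKO 30 min libraries). At 60 min it was 0.79 (SE 0.30, adjusted p = 0.233; 0.75, adjusted p = 0.0974, without both CKO 30 min libraries), and DESeq2 called it (0.75, adjusted p = 0.0344).

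**Figure D2:**
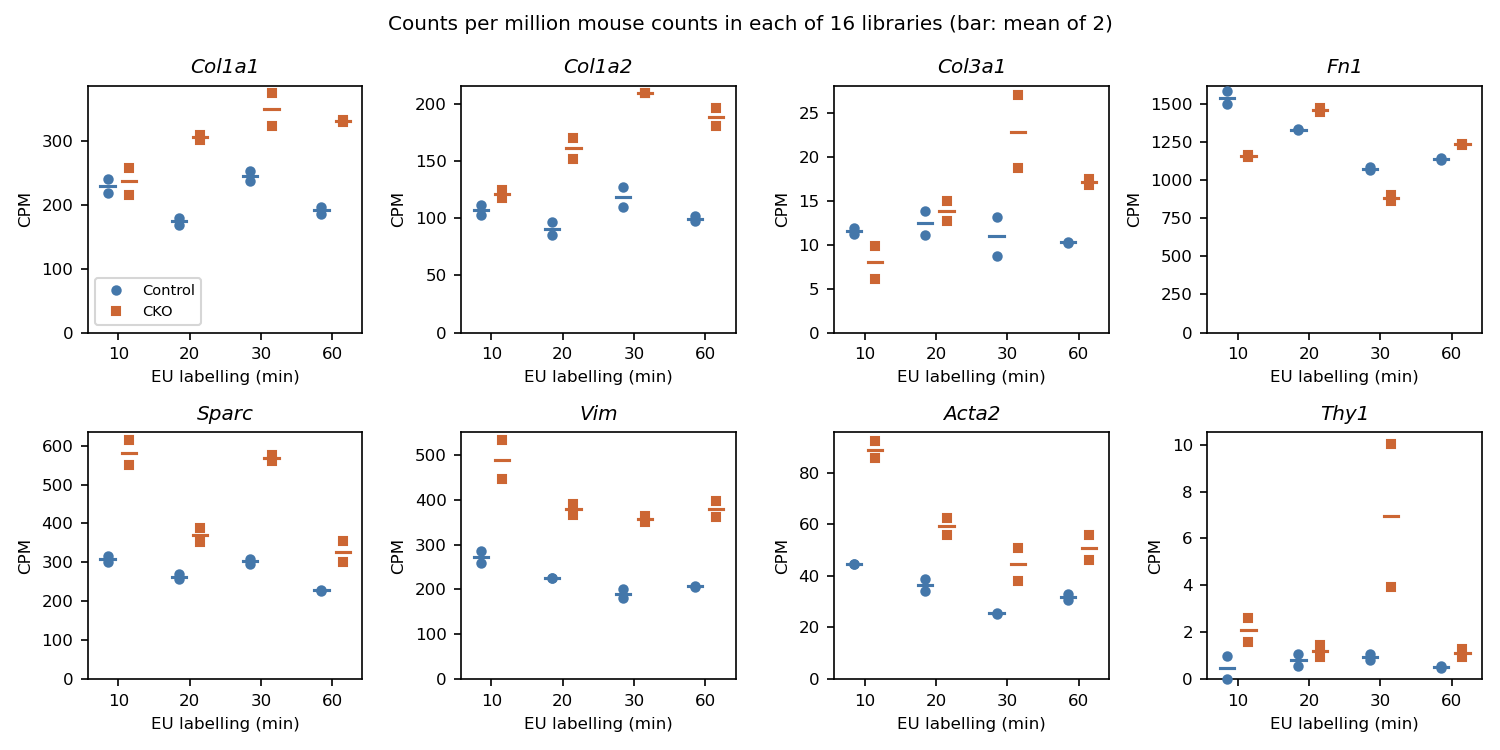
CPM (y axis, from 0) of 8 genes in every library by EU labelling time (x axis); circles are Control and squares CKO libraries, bars are means of 2. Vim, Acta2, Sparc and Col1a2 are higher in both CKO libraries than in both Control libraries at each time, Col1a1 at 20, 30 and 60 min, while Fn1 crosses between the genotypes.

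Dcn and Lum, which mark connective tissue fibroblasts most closely, were under 1 CPM in every library but the first CKO 30 min library. The genes are neighbours on chromosome 10 (Dcn, ENSMUSG00000019929, chr10:97479500-97518163; Lum, ENSMUSG00000036446, chr10:97565501-97572703). Lum had 0 counts in all 8 Control libraries together, which allows a level of up to 0.0198 CPM (3 counts over the group). It had 3 counts in the 6 CKO libraries at 10, 20 and 60 min, 1 each in 3 of them, and 9 and 0 in the CKO 30 min libraries. Dcn had 14 counts in the Control libraries (0.0924 CPM pooled, exact 95% Poisson interval 0.0505 to 0.155): 0 and 0 at 10 min, 2 and 0 at 20 min, 1 and 0 at 30 min, and 3 and 8 at 60 min. In CKO it had 0 and 0 at 10 min, 19 and 4 at 20 min, 37 and 5 at 30 min, and 5 and 1 at 60 min. Such intervals and limits cover counting error only.

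The highest Lum and Dcn values both came from the first CKO 30 min library, at 1.73 and 7.13 CPM, and the second had 0 and 0.979 CPM. Dcn passed the count filter only through these libraries, and was highest in the first of them. It is counted among the tested genes, but its tests are not read as results. Among the other CKO libraries the first at 20 min held the most Dcn, 19 counts or 0.995 CPM, just above the second CKO 30 min library. In the CKO 10 min libraries Dcn and Lum both had 0 counts, which allows up to 0.252 CPM in the first library and 0.228 CPM in the second (3 counts each).

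Thy1 (ENSMUSG00000032011, chr9:44043384-44048579), a glycoprotein anchored at the surface of fibroblasts, thymocytes and neurons, was also scarce, with 0 to 52 counts per library. In Control it measured 0.976 and 0 CPM at 10 min, 1.08 and 0.541 at 20 min, 1.09 and 0.829 at 30 min and 0.556 and 0.456 at 60 min. CKO values were 2.60 and 1.60 CPM at 10 min, 1.47 and 0.952 at 20 min, 10.02 and 3.92 at 30 min and 0.938 and 1.28 at 60 min. The CKO values lay above the Control values at 10, 30 and 60 min, at 10 min on 31 and 21 counts against 13 and 0. The highest value again came from the first CKO 30 min library. The log2 fold change over all EU times was 1.62 (SE 0.62, edgeR, Benjamini-Hochberg adjusted p = 0.0836), and 1.27 (SE 0.59, adjusted p = 0.164) without both CKO 30 min libraries. DESeq2 called Thy1 (1.69, adjusted p = 0.00800), as did edgeR under the stricter count filter (1.67, adjusted p = 0.0348). At 30 min edgeR did not call Thy1 (2.58, SE 1.11, adjusted p = 0.0568), where 48.5% of all identifiers were called. It did with library totals (2.86, adjusted p = 0.0387), DESeq2 size factors (2.86, 0.0398) and the stricter filter (2.85, 0.0293). DESeq2 called it too (2.87, adjusted p = 0.00692). It was not called with ERCC scaling, without a filter or with the replicate number as a block. The log2 fold change was 2.63 and 2.55 without either Control 10 min library, and 3.16 without the second CKO 30 min library.

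**Figure D3:**
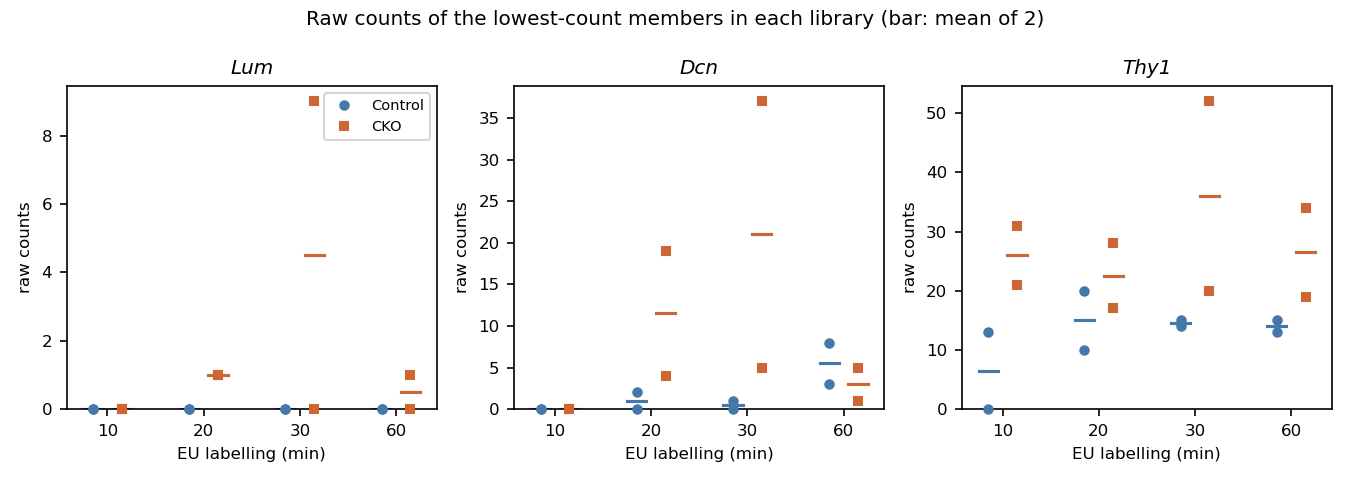
Raw counts (y axis, from 0) of Lum, Dcn and Thy1 in every library by EU labelling time (x axis); circles are Control and squares CKO libraries, bars are means of 2. Lum is at 0 in every Control library, Dcn reaches 8 counts at most in Control, and the highest point of each gene is the first CKO 30 min library, with 9, 37 and 52 counts.

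Vim (ENSMUSG00000026728, chr2:13574311-13582826), which encodes the intermediate filament vimentin, had the smallest adjusted p of the 10 genes over all EU times. In Control it measured 286 and 259.7 CPM at 10 min, 226.1 and 225.9 at 20 min, 200.2 and 181.0 at 30 min and 206 and 207 at 60 min. In CKO cells the values were 446 and 532 CPM at 10 min, 366 and 391 at 20 min, 363 and 349.6 at 30 min and 397 and 362 at 60 min. The lowest CKO library, at 349.6 CPM, lay above the highest Control library, at 286 CPM. The log2 fold change over all EU times was 0.80 (SE 0.09, edgeR, Benjamini-Hochberg adjusted p = 1.0e-05), and 0.85 (SE 0.06) without both CKO 30 min libraries (adjusted p = 9.1e-09). It lay between 0.62 at 30 min and 0.93 at 60 min, but was 0.90 at 30 min with library totals in place of TMM (edgeR, adjusted p = 1.8e-08), and the test of genotype by EU time did not call it (edgeR, adjusted p = 0.185).

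Acta2 (ENSMUSG00000035783, chr19:34240336-34255585), smooth muscle actin and a mark of contractile fibroblasts, measured 44.6 CPM in both Control libraries at 10 min, 38.6 and 34.1 at 20 min, 25.3 and 25.6 at 30 min and 32.9 and 30.7 at 60 min. In CKO it measured 92.2 and 85.5 CPM at 10 min, 62.3 and 55.9 at 20 min, 50.9 and 38.2 at 30 min and 55.9 and 45.9 at 60 min. The CKO libraries were higher at every EU time, and in both genotypes the 10 min libraries were the highest. Over all EU times the log2 fold change of Acta2 was 0.76 (SE 0.10, edgeR, Benjamini-Hochberg adjusted p = 9.5e-05), and 0.82 (SE 0.09) without both CKO 30 min libraries (adjusted p = 1.6e-06). By EU time it was 1.07 (SE 0.15) at 10 min, 0.70 (SE 0.15) at 20 min, 0.52 (SE 0.16) at 30 min (0.81 with library totals) and 0.73 (SE 0.15) at 60 min, and genotype by EU time was not called (edgeR, adjusted p = 0.266). The 10 min call of Acta2 was kept without any 1 of the 16 libraries. The 20 min call was lost without any 1 of the 4 libraries of that comparison (edgeR, adjusted p from 0.0527 to 0.468), and the 60 min call without either Control 60 min library (0.107 and 0.219) or the first CKO 60 min library (0.281).

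Sparc (ENSMUSG00000018593, chr11:55394159-55420080) encodes a calcium-binding glycoprotein that binds collagen and is made by many embryonic cell types. In Control it measured 302 and 315 CPM at 10 min, 256 and 269 at 20 min, 296 and 309 at 30 min and 229 and 228 at 60 min. Levels in CKO were 614 and 550.2 CPM at 10 min, 351 and 389 at 20 min, 561 and 576 at 30 min and 354 and 301 at 60 min. The genotypes were apart at every EU time. The log2 fold change over all EU times was 0.67 (SE 0.09, edgeR, Benjamini-Hochberg adjusted p = 0.000102), and again 0.67 (SE 0.08) without both CKO 30 min libraries (adjusted p = 2.9e-06). By EU time it was 0.99 (SE 0.08) at 10 min, 0.49 (SE 0.08) at 20 min, 0.63 (SE 0.08) at 30 min and 0.57 (SE 0.08) at 60 min. With library totals in place of TMM it was 0.92 at 10 min and 0.91 at 30 min. Genotype by EU time was called for Sparc (edgeR, adjusted p = 0.0102; 0.0122 without both CKO 30 min libraries). That call was lost without the first Control 10 min library (0.0706) or the first CKO 10 min library (0.0567). The Sparc call at 20 min was lost without the first Control 20 min library (0.0574) or the second CKO 20 min library (0.0934).

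Fn1 (ENSMUSG00000026193, chr1:71585473-71653280), which encodes the cell-adhesive glycoprotein fibronectin, did not follow the abundant genes called higher over all EU times. In Control it measured 1499 and 1581 CPM at 10 min, 1325 and 1338 at 20 min, 1063 and 1083 at 30 min and 1134 and 1142 at 60 min. In CKO it measured 1166 and 1149 CPM at 10 min, 1449 and 1473 at 20 min, 902 and 866 at 30 min and 1234 and 1233 at 60 min. The CKO libraries thus lay below the Control libraries at 10 and 30 min and above them at 20 and 60 min, without overlap each time. The log2 fold change was −0.34 (SE 0.06, edgeR, Benjamini-Hochberg adjusted p = 0.000412) at 10 min, where ERCC scaling turned it to 0.99 (adjusted p = 0.000696), and −0.56 (SE 0.06, adjusted p = 8.9e-08) at 30 min, where library totals in place of TMM gave −0.28 (adjusted p = 0.000840). At 20 min it was 0.13 (SE 0.06, adjusted p = 0.674) and at 60 min 0.17 (SE 0.06, adjusted p = 0.209), both short of the threshold, though DESeq2 called them (0.13, adjusted p = 0.0122, and 0.13, adjusted p = 0.00842). Genotype by EU time was called for Fn1 (edgeR, adjusted p = 6.2e-07; 0.000543 without both CKO 30 min libraries). Over all EU times Fn1 was not called (−0.15, SE 0.10, edgeR, adjusted p = 0.365; −0.03, adjusted p = 0.848, without both CKO 30 min libraries), and the direction turned under ERCC scaling (0.28, adjusted p = 0.447).

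Seen by EU time, 4 of the 9 tested genes were called at 10 min, Sparc, Vim and Acta2 higher and Fn1 lower (higher under ERCC scaling), where 11.8% of all identifiers were called. At 20 min 5 were called, all higher (Col1a1, Col1a2, Sparc, Vim and Acta2), against 0.96% of all identifiers called and 0.706% called higher. At 60 min the same 5 were called, again all higher, against 2.63% called and 1.79% called higher. Without both CKO 30 min libraries the same genes were called at these 3 EU times, with 23.9%, 2.37% and 6.16% of identifiers called. At 30 min 8 of 9 were called, 7 higher and 1 lower, against 48.5% of all identifiers, so that little can be read from this count. Dcn was among the 7, and its call is not read as a result, because it entered the test only through its counts there. At 30 min the median log2 fold change of all identifiers was 0.61, and −0.09 over the 20183 that could be tested both ways. A fit without 1 library leaves a single library in its group and tests more identifiers (29847 to 33508, against 27488). Its losses therefore cannot be laid to that library alone. Several of these 30 min calls were lost in such fits (edgeR, Benjamini-Hochberg). That of Col1a1 was lost without the second Control 10 min library (adjusted p = 0.103), either Control 30 min library (0.0670 and 0.205) or the second CKO 30 min library (0.190). That of Col3a1 was lost without the second Control 30 min library (0.313), either Control 60 min library (0.0503 and 0.0501) or the second CKO 30 min library (0.183). That of Acta2 was lost without either Control 30 min library (0.0521 and 0.0504) or the first CKO 30 min library (0.199).

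The summed level of all 10 genes was 1901 to 2542 CPM in the Control libraries (median 2056) and 2447 to 2777 CPM in the CKO libraries (median 2620). Without the CKO 30 min libraries the CKO range was 2486 to 2777 CPM. These ranges overlapped. Over the 9 genes other than Fn1, a set formed after the values had been seen, the sum was 767 to 989 CPM in Control. In CKO that sum was 1254 to 1581 CPM (1254 to 1538 without the 30 min libraries). The lack of overlap here rests on leaving out Fn1 and tests nothing. Over Col1a1, Col1a2, Col3a1, Lum and Dcn the sum was 265.5 to 394.5 CPM in Control and 350.6 to 613.6 CPM in CKO (350.6 to 544.0 without the 30 min libraries). Over Lum and Dcn alone it was 0 to 0.281 CPM in Control, 0 to 1.05 CPM in the CKO libraries at 10, 20 and 60 min, and 8.87 and 0.979 CPM at 30 min. The 3 collagen genes, Fn1, Sparc, Vim and Acta2 had counts in all 16 libraries, and whether these came from fibroblasts or from the stem cells was not tested.

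With longer labelling, the genes also changed their share of the captured RNA. Each fall given here in share was a rise under ERCC scaling, by 2.98 to 3.07 on the log2 scale for Fn1, Sparc, Vim and Acta2 in Control and by 1.33 to 1.78 for Sparc, Acta2 and Vim in CKO. From 10 to 60 min in Control cells 3 genes fell: Fn1 (log2 fold change −0.35, SE 0.06), Sparc (−0.35, SE 0.08) and Vim (−0.32, SE 0.09), where 10.1% of all identifiers were called and 3.21% were called lower (edgeR, Benjamini-Hochberg adjusted p = 0.000207, 0.00560 and 0.0236). Without both CKO 30 min libraries Acta2 was called as well (−0.39, SE 0.13, adjusted p = 0.0319), with 20.8% of identifiers. In CKO cells 6 genes were called, against 15.2% of all identifiers, and the same 6 without both CKO 30 min libraries, against 27.8%. Sparc (−0.77, SE 0.08), Acta2 (−0.75, SE 0.15) and Vim (−0.31, SE 0.09) fell, whereas Col1a1 (0.54, SE 0.09), Col1a2 (0.70, SE 0.11) and Col3a1 (1.15, SE 0.31) rose. In Control the same change was −0.18 (SE 0.09) for Col1a1 and −0.02 (SE 0.11) for Col1a2, neither called, and for these 2 genes, Fn1 and Sparc the genotype by EU time test was passed. The rise of Col3a1 in CKO was lost without the first CKO 10 min library (edgeR, adjusted p = 0.145) or the second CKO 60 min library (0.0713). The fall of Vim was lost without the second CKO 10 min library (0.453) or the second CKO 60 min library (0.129). In Control the fall of Vim was lost without any of 5 libraries: the first Control 10 min library (0.336), either Control 60 min library (0.244 and 0.214) or either CKO 20 min library (0.0507 and 0.0508). That of Sparc was lost without the second Control 10 min library (0.0953) or either Control 60 min library (0.101 and 0.118).

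Relative to the ERCC spike-in, RNA of a fixed amount added to each sample before library construction, all 7 abundant genes were higher at 60 min than at 10 min in both genotypes. The course between was not always upward: in CKO cells Fn1 stood at 87.4 counts per 1000 ERCC counts at 20 min and 57.3 ± 23.0 (SD, n = 2) at 30 min. In Control cells Sparc went from 3.68 ± 0.265 counts per 1000 ERCC counts at 10 min (SD, n = 2) to 30.1 ± 0.405 at 60 min, an 8.19-fold gain. In CKO cells it started at 18.2 ± 0.933 and reached 45.8 ± 0.941, a 2.52-fold gain. Vim went from 3.25 ± 0.0869 to 27.2 ± 0.0939 in Control and from 15.5 ± 3.89 to 53.3 ± 3.75 in CKO. Acta2 went from 0.531 ± 0.0224 to 4.19 ± 0.231 in Control and from 2.78 ± 0.212 to 7.11 ± 0.0194 in CKO.

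At 10 min the CKO level per spike-in was thus 4.95-fold that of Control for Sparc, 4.78-fold for Vim and 5.24-fold for Acta2, and 2.71-fold for Col1a1, 2.99-fold for Col1a2 and 1.98-fold for Fn1. For all mouse counts together it was 2.64-fold, close to that of Col1a1. At 30 min the ratios of the 6 genes, in the same order, were 1.48, 1.48, 1.43, 1.10, 1.39 and 0.652, against 0.788 for all mouse counts. At 60 min they were 1.52, 1.96, 1.70, 1.85, 2.03 and 1.16, against 1.07. The spike-in ratio also carries cell number, RNA recovery and capture yield: all mouse counts together gained 11.1-fold from 10 to 60 min in Control and 4.49-fold in CKO. Under ERCC scaling edgeR called 8 of the 9 tested genes higher at 10 min, against 43.1% of all identifiers. It called none at 60 min, against 0.0437% of all identifiers. There 6 of the genes, and 1063 of all 27488 identifiers, had an unadjusted p under 0.05. DESeq2, on its own size factors, called 7 at 60 min, against 7.17%.

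**Figure D4:**
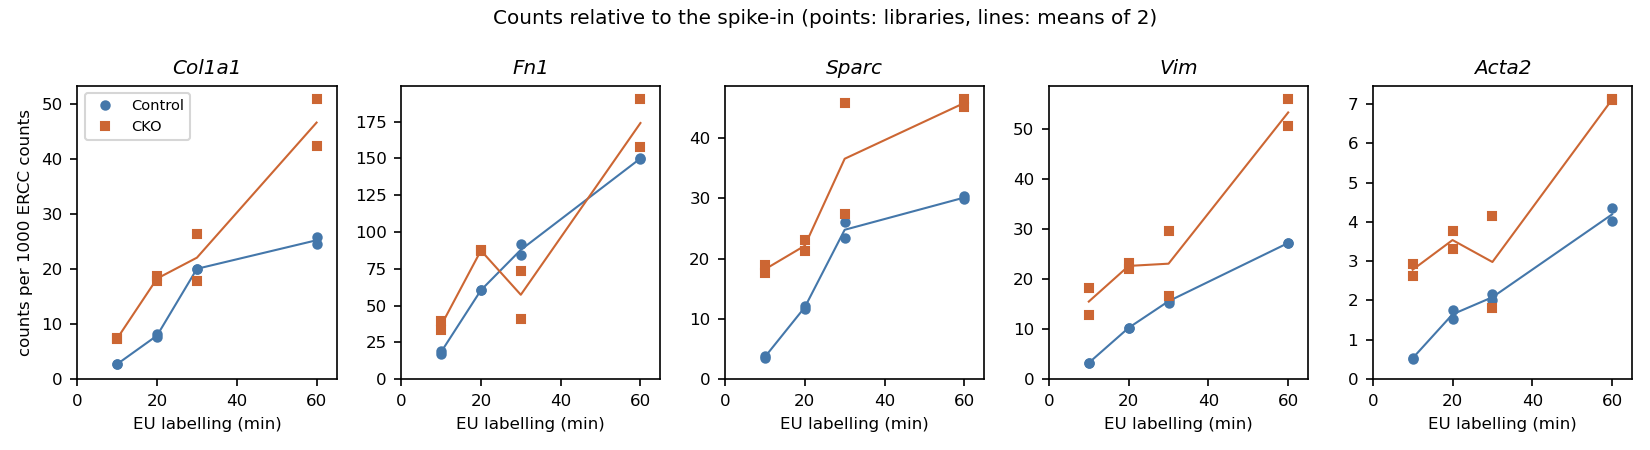
Counts per 1000 ERCC counts (y axis, from 0) of Col1a1, Fn1, Sparc, Vim and Acta2 by EU labelling time in min (x axis); points are libraries, circles Control and squares CKO, and lines join means of 2. Sparc, Vim and Acta2 start at 18.2, 15.5 and 2.78 in CKO against 3.68, 3.25 and 0.531 in Control at 10 min, and the CKO 30 min libraries are spread widely.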

How the data were processed

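Newly made RNA of 16 libraries was analysed from the deposited counts: raw whole-number counts per Ensembl gene identifier and ERCC species, not normalised. Per the submitters' processing notes, the authors used CASAVA, Trimmomatic 0.38, HISAT2 2.1.0 and HTSeq with mm10. The sources used here give neither strand setting nor annotation release, so counts of overlapping and antisense genes are uncertain. Per the labels' protocols, 0.01 µl of ERCC RNA was added per sample before library construction. The 10 genes and their symbols came from a list paired by identifier before the dot, and other genes were not named, because the reference table shared no identifier with the files; the further marker lists (matrix, stem cell, endoderm) were therefore not run. The members, lists and tests were chosen with earlier results of these data known.

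Changes were tested with edgeR 4.0.16 in R 4.3.3 (quasi-likelihood F-test, robust fit, TMM, filterByExpr by group, Benjamini-Hochberg over 27488 identifiers, threshold 0.05). The overall effect came from EU time plus genotype, the others from 8 group means. SE is the log2 fold change divided by the root of F. The procedure was tested on simulated data. DESeq2 1.42.0, other scalings, filters and library subsets were alternatives. The count filter was rerun for each library subset, so the number of identifiers tested changed with it. The 2 libraries of each group were not copies of each other (chi-square per degree of freedom 3.51 to 21). Positions and promoters are RefSeq's for GRCm38.p6: 10 genes had a position and 5 a promoter. All 10 genes are named, by rule.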

Additional observations from a re-analysis of the deposited data

Results flagged for a closer look

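For 4 genes the difference between CKO and Control varied with EU time by the test of genotype by EU time (edgeR, Benjamini-Hochberg), which called 22.7% of all identifiers: Fn1 (adjusted p = 6.2e-07), Col1a1 (8.2e-05), Col1a2 (0.00356) and Sparc (0.0102). Fn1 was lower in CKO at 10 and 30 min, with log2 fold changes of −0.34 (0.99 under ERCC scaling) and −0.56, against 0.13 and 0.17 at 20 and 60 min. The Col1a1 and Col1a2 differences were 0.12 and 0.25 at 10 min and 0.84 and 0.97 at 60 min. The Sparc difference was 0.99 at 10 min (0.92 with library totals, against 0.91 at 30 min) and 0.57 at 60 min.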

How the results depend on the processing

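The 5 genes higher in CKO over all EU times (Vim, Acta2, Sparc, Col1a2, Col1a1) kept their direction and call in all 25 alternatives run for each. With 1 library left out, the number of genes called was 5 in every fit over all EU times, 4 to 5 at 10 min, 3 to 5 at 20 min, 4 to 9 at 30 min, 4 to 5 at 60 min, 3 to 5 for genotype by EU time, 1 to 4 from 10 to 60 min in Control and 4 to 6 in CKO. ERCC scaling gave 8 calls at 10 min, 3 at 20 min, 3 at 30 min and 0 at 60 min. From 10 to 60 min in Control it gave 9. In the same order, 11962, 146, 11623, 12 and 18274 of all 27488 identifiers were called. At 60 min 6 of the genes, and 1063 of all identifiers, had an unadjusted p under 0.05 with this scaling (edgeR). DESeq2, on its own size factors and not ERCC scaling, called 7 at 60 min, against 7.17% of all identifiers. ERCC scaling turned Fn1 over all EU times to 0.283. Per 1000 ERCC counts, the log2 ratio of CKO to Control averaged over EU times was 0.683 for the summed level, 0.917 for Col1a1, 1.08 for Col1a2, 0.737 for Col3a1, 0.279 for Fn1, 1.09 for Sparc, 1.23 for Vim and 1.19 for Acta2. Replicate numbers did not pair the libraries (0 of 28 correlations of replicate deviations were over 0.1). With the replicate number as a block, 5 genes were called over all EU times and 7 in place of 8 at 30 min, Col1a1 being lost (edgeR, adjusted p = 0.0556). Of all 27488 identifiers, 2486 were then called over all EU times and 11984 at 30 min. The cause of these changes was not tested. Depth limits Lum, Dcn and Thy1, with at most 9, 37 and 52 counts in a library.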

Other observations

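The ratio of the type I collagen chains, which also carries gene length, was compared between genotypes, a measure chosen after its values had been seen. The ratio of Col1a1 to Col1a2 counts was 1.83 to 2.32 in the Control libraries and 1.54 to 2.20 in the CKO libraries. These ranges overlapped. The mean log2 difference over EU times was −0.15, and −0.0952 without the 30 min libraries. No p-value is given, since the measure was chosen from its values.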
